A study of Mus musculus with 6 samples.

Results

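Primary mouse neurons depleted of the histone deacetylase HDAC2 were compared directly with primary mouse neurons depleted of the transcription factor Sp3. The comparison set the FPKM (fragments scaled to transcript length and to the mapped fragments of a library) of a gene in HDAC2 knockdown against its FPKM in Sp3 knockdown. It took every gene that the authors' test had accepted in both knockdowns, which was 13357 of 23235 genes. The series was designed to ask whether the 2 proteins act together on a set of genes, and the direct contrast asks which genes the 2 knockdowns leave at different levels.

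The series holds 6 RNA sequencing libraries, 2 each from HDAC2 knockdown, Sp3 knockdown and control cultures. All cultures were cortical and hippocampal neurons taken from mouse embryos at day 15 and kept for 17 days. Each culture received 1 uM AraC, an inhibitor of DNA synthesis that acts on dividing cells, on day 5 in vitro, and lentivirus carrying short hairpin RNA (shRNA) on day 12. Knockdown cultures received shRNAs against HDAC2 or Sp3. The labels name the third group only as control, and its hairpin is not given in the sources used here. Strain, sex and the number of embryos are not given either, and no label says whether a group's 2 libraries are separate cultures. The p-values below therefore measure a spread that may be technical.

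HDAC2 removes acetyl groups from histone tails and works inside corepressor complexes such as Sin3, NuRD and CoREST, which DNA-binding proteins bring to promoters and enhancers. Sp3 is one such DNA-binding protein, a zinc finger factor of the Sp family that recognises GC-rich boxes near transcription start sites and can act as an activator or a repressor. In neurons HDAC2 is best known as a restraint on genes of synaptic plasticity and memory.

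Each table gives a single FPKM per group, so no gene has a value per library. Taking genes of 1 FPKM or more in one knockdown or the other, the median gene was 1.357-fold higher in HDAC2 knockdown, a shift of 0.44 on the log2 scale. Differences below are log2 ratios of HDAC2 knockdown over Sp3 knockdown with that shift subtracted (centred), each with a standard error that also contains the error of control and so is an upper limit. Equal deposited FPKM in both knockdowns therefore gives a centred value that lies 0.44 below 0. FPKM values are printed as deposited, and statements on where control lies use them without any centring. A shift made by scaling and a true higher level of most genes cannot be told apart in these files. FPKM keeps no read count, so the depth of the libraries is unknown. In the authors' tests against control the median standard error was 0.26 for HDAC2 and 0.14 for Sp3 knockdown on the log2 scale, and that of the direct difference was 0.30.

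Most genes differed little between the knockdowns. Of the 13277 genes that could be tested, 65.7% lay within 0.5 of the median gene on the log2 scale and 10.2% lay beyond 1. At an adjusted p under 0.05 (normal test of the difference, Benjamini-Hochberg over all genes tested), 1062 genes were higher in HDAC2 knockdown, which is 8.00% of those tested. Another 887 genes were lower in HDAC2 knockdown, or 6.68%, so that 14.7% were called in either direction. The median difference was 1.10 among genes called higher and -0.95 among genes called lower. An uncalled gene of median error has a 95% interval of ± 0.59, so differences smaller than that were mostly not detectable. The split between directions depends on the centring. Higher genes made up 54.5% of calls as reported, 67.7% when centred on genes with at least 10 FPKM in both knockdowns, and 92.5% (3528 higher and 287 lower) without centring. The calls also rest on the normal reference of the authors' test: with a t reference of 4 degrees of freedom 0 genes passed, the smallest adjusted p was 0.238, and 1816 genes had an unadjusted p under 0.05.

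**Figure D1:**
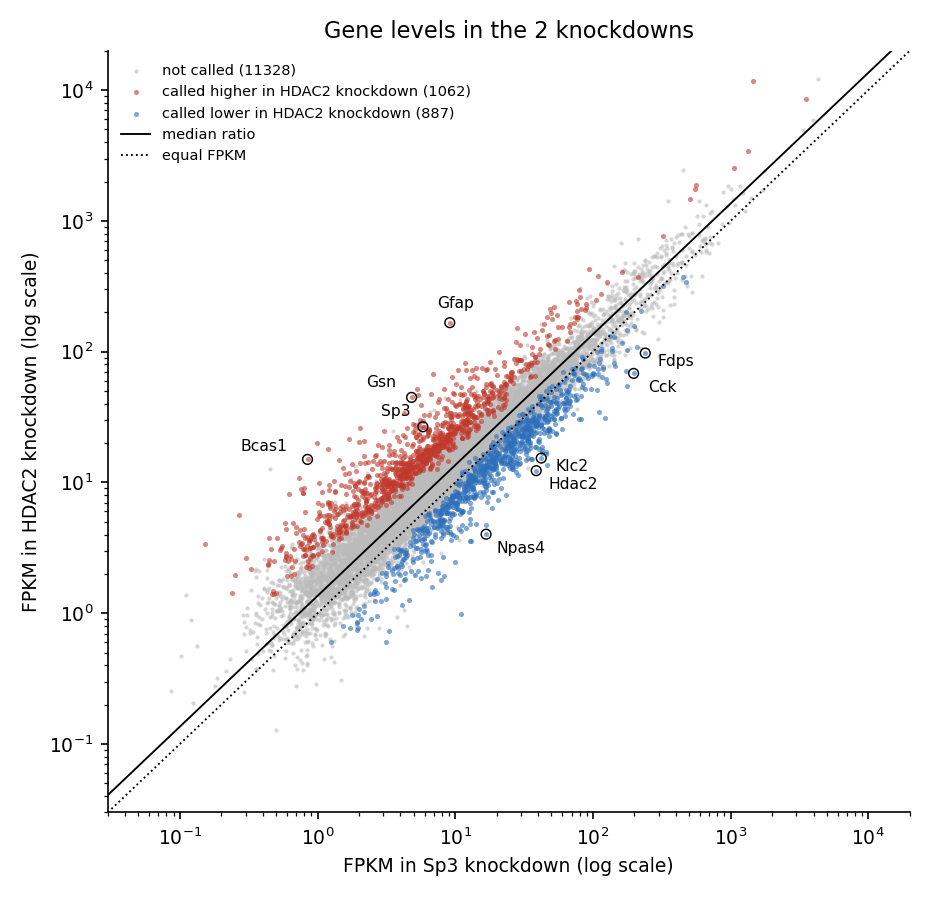
Each point is 1 of the 13277 tested genes, with its FPKM in Sp3 knockdown on the x axis and in HDAC2 knockdown on the y axis, both on log scales. Red points are the 1062 genes called higher and blue points the 887 called lower in HDAC2 knockdown, the solid line marks the median ratio of 1.357 and the dotted line equal FPKM; Gfap and Bcas1 stand far above the line and Npas4, Hdac2 and Cck below it.

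The targeted genes separated the 2 knockdowns in opposite directions. Hdac2 measured 12.3 FPKM in HDAC2 knockdown, 38.8 FPKM in Sp3 knockdown and 49.4 FPKM in control. Its level was lowest in the libraries labelled for it, and the centred difference was -2.10 ± 0.27, with an adjusted p of 3.92e-12 in the normal test on the authors' errors. Sp3 measured 26.7 FPKM in HDAC2 knockdown, 5.82 FPKM in Sp3 knockdown and 15.5 FPKM in control. Sp3 was thus lowest in its own knockdown and highest in HDAC2 knockdown, with a difference of 1.75 ± 0.14 and, from the authors' errors, an adjusted p of 9.90e-33.

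None of 4 close relatives was called. Hdac1, the deacetylase most similar to HDAC2, measured 11.1 FPKM in HDAC2 and 7.07 FPKM in Sp3 knockdown (0.21 ± 0.30). Hdac3 had 58.9 and 44.9 FPKM (-0.05 ± 0.30). Sp1, which binds the same GC boxes as Sp3, had 9.93 and 6.43 FPKM (0.19 ± 0.27). Sp4, the Sp factor most restricted to neurons, had 6.03 and 5.17 FPKM (-0.22 ± 0.26). Of 17 tested deacetylases and sirtuins, 1 was called higher (5.88%) and 2 lower (11.8%), the target Hdac2 included, against 8.00% and 6.68% of all genes. Without centring 3 were higher and 1 lower. Besides Hdac2 the lower one was Hdac6, the tubulin deacetylase (-0.74 ± 0.13), and the higher one was Sirt2, which also deacetylates tubulin and is abundant in oligodendrocytes (1.02 ± 0.18). Of 18 tested Sp and Kruppel-like factors, Sp3 was the single gene called, and without centring 8 were higher and 0 lower.

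Subunits of the complexes in which HDAC2 works were called higher in HDAC2 knockdown more often than lower. Of 34 tested subunits 7 were higher (20.6%) and 1 was lower (2.94%), against 8.00% and 6.68% of all genes. Their median was 0.28, and without centring 18 were higher and 0 lower. Rcor2, a CoREST subunit, stood at 16.2 against 5.29 FPKM (1.17 ± 0.31), and the NuRD subunit gene Gatad2a at 13.2 against 5.25 FPKM (0.90 ± 0.19). The exception was Rbbp7, a histone-binding subunit common to several of these complexes, at 37.0 against 55.9 FPKM (-1.04 ± 0.28). Among 17 acetyltransferases and acetyl-lysine readers 2 were higher (11.8%), Kat2b and Brd3, and 1 was lower (5.88%), Myst2, shares near those of all genes, and without centring 5 were higher and 0 lower. Of 11 tested genes of DNA methylation 1 was higher, the maintenance factor Uhrf1 (0.79 ± 0.17), and 1 was lower, the 5-methylcytosine oxidase Tet1 (-1.51 ± 0.25), which is 9.09% each way and also near the background.

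Genes of glial cells were among the largest differences upward. Gfap, the astrocytic intermediate filament, measured 167 FPKM in HDAC2 knockdown, 9.13 FPKM in Sp3 knockdown and 16.6 FPKM in control. The 2 knockdowns lay on opposite sides of control, and the centred difference of 3.75 ± 0.39 corresponds to 13.4-fold. Of 26 tested astrocyte markers 12 were called higher (46.2%) and 0 lower, against 8.00% and 6.68% of all genes, and their median was 1.22. The gap junction gene Gja1 stood at 74.4 against 14.1 FPKM (1.96 ± 0.31), and the water channel gene Aqp4 at 43.7 against 8.90 FPKM (1.85 ± 0.30). S100b, a calcium-binding protein of astrocytes and some oligodendrocyte lineage cells, stood at 14.9 against 1.43 FPKM (2.94 ± 0.44). Kcnj10, the inward rectifier potassium channel of glia, had 39.0 against 5.67 FPKM and a control value of 25.6 FPKM (2.34 ± 0.33). Summed over the list, astrocyte markers came to 7131 FPKM in HDAC2 knockdown, 2588 FPKM in Sp3 knockdown and 3105 FPKM in control. Sums of lists, here and below, use deposited FPKM without centring and include members that were not tested. Uncalled members of high level weigh most in the astrocyte sum, such as Fabp7 (1426 against 350.8 FPKM) and Apoe (1313 against 665.5 FPKM). In bulk RNA of this kind, fewer cells of a type and less RNA per cell cannot be told apart.

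Markers of the oligodendrocyte lineage showed the same order of the 3 groups. Of 12 precursor markers 8 could be tested, with a median of 1.35. Of these 8, 6 were called higher (75%) and 0 lower, against 8.00% and 6.68% of all genes. Sox10, the lineage's transcription factor, measured 12.8 FPKM in HDAC2 knockdown, 1.52 FPKM in Sp3 knockdown and 4.21 FPKM in control (2.64 ± 0.35). Bcas1, a gene of newly forming oligodendrocytes, measured 15.01, 0.846 and 1.99 FPKM in the same order (3.71 ± 0.42), and the growth factor receptor gene Pdgfra 98.8, 20.9 and 43.8 FPKM (1.80 ± 0.33). For each of these, control lay between the knockdowns. Olig1 was not called, at 93.1 against 57.1 FPKM (0.27 ± 0.31), while its neighbour Olig2 was called higher (1.07 ± 0.32). Summed over the precursor list, the values were 409.7 FPKM in HDAC2 knockdown, 135.5 FPKM in Sp3 knockdown and 225.8 FPKM in control.

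Of 19 listed myelin and mature oligodendrocyte markers 8 could be tested, with a median of 1.55. Of these 8, 4 were called higher (50%) and 0 lower, against 8.00% and 6.68% of all genes. Cnp, a myelin enzyme, stood at 34.0 against 4.22 FPKM (2.57 ± 0.22), and the myelin basic protein gene Mbp at 27.8 against 4.97 FPKM (2.04 ± 0.18). Ugt8a, which makes myelin galactolipids, had 9.85 against 1.03 FPKM (2.82 ± 0.39). Several markers that were too low in Sp3 knockdown and control for the authors' test showed the widest gaps in level. Gpr17, a receptor of committed precursors, was listed at 29.1 FPKM in HDAC2 knockdown, 0.236 FPKM in Sp3 knockdown and 0.649 FPKM in control. Cldn11, a tight junction gene of myelin, was listed at 16.6, 0.497 and 0.624 FPKM in the same order. These markers were chosen after their values were seen, and Opalin, a marker of mature oligodendrocytes, was listed at 0 in all 3 groups. The summed myelin list came to 138.1 FPKM in HDAC2 knockdown, 25.1 FPKM in Sp3 knockdown and 36.7 FPKM in control.

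Other non-neuronal cells left few transcripts. Of 16 microglia and macrophage markers, 14 were under 1 FPKM in all 3 groups, and Tmem119, C1qc and Tyrobp were listed at 0 in all of them. Of 17 vascular and fibroblast markers 11 were under 1 FPKM in all groups, and the list summed to 55.7 FPKM in HDAC2 and 60.5 FPKM in Sp3 knockdown. Among the 6 tested, the pericyte receptor gene Pdgfrb was called higher (1.07 ± 0.40) and the fibroblast proteoglycan gene Dcn lower (-0.82 ± 0.17). The labels call the cells primary neurons, and markers of neurons were present throughout. The summed pan-neuronal list came to 1647 FPKM in HDAC2 knockdown, 2108 FPKM in Sp3 knockdown and 1810 FPKM in control.

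**Figure D2:**
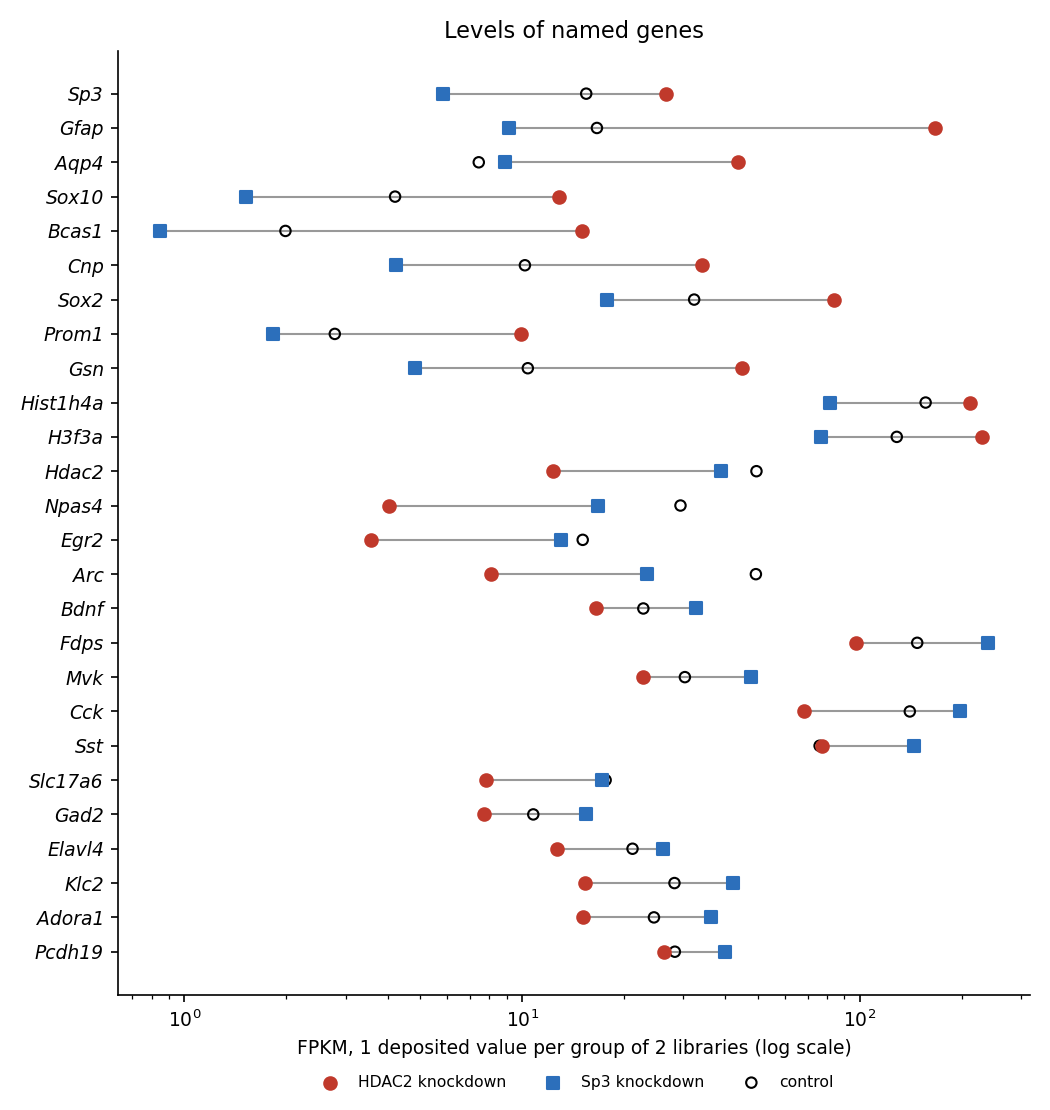
Deposited FPKM on a log axis for 26 named genes in HDAC2 knockdown (red circles), Sp3 knockdown (blue squares) and control (open circles), 1 value per group of 2 libraries, so that no error bar is drawn. From Sp3 down to H3f3a the HDAC2 knockdown value is the higher of the knockdowns, and from Hdac2 down to Pcdh19 it is the lower.

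Genes of the Notch pathway act in progenitors and radial glia. Of 20 tested genes of this pathway and of radial glia, 13 were called higher (65%) and 0 lower. Of all genes 8.00% were called higher and 6.68% lower. The median of the list was 0.98. With a pseudocount of 1 FPKM 8 were higher and 0 lower. The stem cell factor Sox2 stood at 84.1 against 17.8 FPKM (1.80 ± 0.29), and Prom1, a surface protein of radial glia, at 9.89 against 1.83 FPKM (2.00 ± 0.28). The Notch ligand genes Jag1 (1.45 ± 0.29) and Dll3 (1.42 ± 0.32) and the target gene Hey2 (1.78 ± 0.54) were called higher, as were the receptors Notch1 (1.06 ± 0.33) and Notch3 (0.89 ± 0.27). Jag2, another ligand, was not called (-0.20 ± 0.28). The astrocyte list, with a median of 1.22, moved with these genes, and its part in their difference was not tested.

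Of 36 tested genes of cell division 8 were called higher (22.2%) and 0 lower, against 8.00% and 6.68% of all genes. Their median was 0.57. The count depends on the settings, with 29 higher without centring, 3 with a pseudocount of 1 FPKM, and 0 lower under either. The spindle genes Nusap1 (12.6 against 4.41 FPKM, 1.08 ± 0.23) and Tpx2 (12.9 against 5.88 FPKM, 0.70 ± 0.14) had small p-values, whereas Mki67, the usual marker of cycling cells, was not called at 20.4 against 11.3 FPKM (0.41 ± 0.36). Many histone genes are transcribed only during DNA replication. Of 76 tested histone genes 28 were called higher (36.8%) and 0 lower, with a median of 0.64, and 66 were higher and 0 lower without centring. Hist1h4a measured 211 FPKM in HDAC2 knockdown, 81.3 FPKM in Sp3 knockdown and 156 FPKM in control (0.94 ± 0.26). H3f3a, a variant histone made outside replication, measured 230, 76.8 and 129 FPKM (1.15 ± 0.31). Many histone genes are near-identical copies, so reads may be split among them and their values are not independent.

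Extracellular matrix genes were called higher more often than all genes, and lower no more often. Of 42 tested collagens, laminins and other matrix genes, 14 were called higher (33.3%) and 2 lower (4.76%), against 8.00% and 6.68% of all genes. Their median was 0.48, and without centring 22 were higher and 2 lower. The laminin genes Lama5 (1.76 ± 0.29) and Lamb2 (1.43 ± 0.28) and the collagen gene Col9a3 (11.9 against 1.71 FPKM, 2.36 ± 0.34) were higher. Acan, the core proteoglycan of perineuronal nets, was lower at 4.53 against 8.11 FPKM (-1.28 ± 0.27), as was Thbs1, a secreted factor that promotes synapse formation (8.03 against 14.2 FPKM, -1.27 ± 0.24). Matn4, another matrix gene, was among the largest differences upward at 26.2 against 2.04 FPKM (3.24 ± 0.28). The glial lists moved in the same direction as most of these genes, and their part was not tested.

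Among genes that are not on the lists above, the smallest p-value upward belonged to Gsn, which encodes the actin-severing protein gelsolin. Absence from the lists does not make a gene non-glial, and the cells of origin were not tested. Gsn measured 44.7 FPKM in HDAC2 knockdown, 4.82 FPKM in Sp3 knockdown and 10.4 FPKM in control (2.77 ± 0.19). Erbb2ip, a scaffold of ERBB2 receptors, measured 35.4, 8.70 and 15.8 FPKM (1.58 ± 0.11). Qk, an RNA-binding protein needed for myelin gene splicing, had 189, 54.5 and 103 FPKM (1.36 ± 0.12). In all of these control again lay between the knockdowns. The membrane protein genes Tmem123 (3.91 ± 0.43) and Cd109 (3.45 ± 0.37), the synaptic organiser gene C1ql1 (3.47 ± 0.53), the cell cycle inhibitor gene Cdkn1c (3.29 ± 0.69) and the nuclear noncoding RNA Neat1 (3.21 ± 0.39) were among the largest differences upward. Ugt1a6b had the largest one under the naming rule (3.96 ± 0.81), but it shares exons with other genes of its cluster, so its value is uncertain.

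Cholesterol genes supply membranes, synapses and myelin. All 23 tested genes of cholesterol synthesis and uptake lay below the median gene, and their median was -1.24. Of these genes 15 were called lower (65.2%) and 0 higher, against 6.68% and 8.00% of all genes. Without centring 10 were lower and 0 higher, with a median of -0.80. Fdps, the farnesyl diphosphate synthase, measured 97.6 FPKM in HDAC2 knockdown, 240.0 FPKM in Sp3 knockdown and 148 FPKM in control (-1.74 ± 0.27). Mvk, the mevalonate kinase that acts upstream of it, measured 22.7, 47.6 and 30.3 FPKM (-1.51 ± 0.25), and Mvd, the decarboxylase of the same branch, 27.8, 53.4 and 36.4 FPKM (-1.38 ± 0.24). Control lay between the knockdowns for each of these 3 enzymes. Stard4, a sterol carrier, stood at 8.47 against 18.7 FPKM (-1.58 ± 0.26). Acly, which supplies cytosolic acetyl-CoA to this pathway and to histone acetylation, had 55.0 against 177 FPKM and a control value of 155 FPKM (-2.13 ± 0.31). Astrocyte markers, with a median of 1.22, differed in the opposite direction in the same libraries.

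Activity-regulated genes are those that neurons switch on when calcium enters the cell. Of 21 tested activity-induced transcription factors 11 were called lower (52.4%) and 0 higher, against 6.68% and 8.00% of all genes. Their median was -0.84, and without centring 6 were lower and 2 higher. Npas4, a neuron-specific factor of this class, measured 4.02 FPKM in HDAC2 knockdown, 16.8 FPKM in Sp3 knockdown and 29.4 FPKM in control (-2.50 ± 0.29). Egr2 measured 3.56, 13.0 and 15.1 FPKM (-2.31 ± 0.28), Egr3 9.03, 21.4 and 20.3 FPKM (-1.69 ± 0.29) and Nr4a1 13.7, 24.2 and 34.0 FPKM (-1.26 ± 0.26). The group did not move as one, since Fos was not called at 32.3 against 28.2 FPKM (-0.24 ± 0.26), nor was Jun at 43.0 against 21.5 FPKM (0.56 ± 0.28). Of 31 tested effector and feedback genes 11 were called lower (35.5%) and 2 higher (6.45%), with a median of -0.57. Without centring 7 were lower and 3 higher. Arc, which acts in synaptic plasticity, stood at 8.07 against 23.5 FPKM with control at 49.2 FPKM (-1.98 ± 0.28). Bdnf, the brain-derived neurotrophic factor, stood at 16.6 against 32.6 FPKM with control between them at 22.9 FPKM (-1.42 ± 0.11). Ptgs2 (-2.03 ± 0.36), the inducible cyclooxygenase, and Nptx2 (-1.49 ± 0.26), a secreted pentraxin that clusters AMPA receptors, were lower. The 2 members called higher were Gem, an inhibitor of calcium channels (2.64 ± 0.52), and Lonrf3 (1.52 ± 0.27).

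The promoters of 2 cholesterol genes and 2 activity-regulated genes are shown because these genes moved together and because Sp3 recognises GC boxes. The sequences are RefSeq promoter windows of build GRCm38.p6, 250 bases before to 50 bases after the annotated start, matched by gene symbol, since the deposited tables use mm9. Capitals mark matches on either strand to GGGCGG (GC box), CCAAT, TGACGTCA (the cyclic AMP response element) or TGANTCA (AP-1). Npas4 is on the minus strand at chr19:4989922-4990221 and Egr2, shown by the first of 5 windows, on the plus strand at chr10:67535249-67535548. Mvk is on the plus strand at chr5:114444019-114444318 and Mvd on the minus strand at chr8:122443373-122443672.
Mvk: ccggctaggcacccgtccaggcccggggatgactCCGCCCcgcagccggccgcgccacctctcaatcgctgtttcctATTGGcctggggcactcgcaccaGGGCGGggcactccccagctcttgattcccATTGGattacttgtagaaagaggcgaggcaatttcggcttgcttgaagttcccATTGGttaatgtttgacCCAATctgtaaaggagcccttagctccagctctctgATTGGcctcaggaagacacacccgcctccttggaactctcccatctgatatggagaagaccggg
Mvd: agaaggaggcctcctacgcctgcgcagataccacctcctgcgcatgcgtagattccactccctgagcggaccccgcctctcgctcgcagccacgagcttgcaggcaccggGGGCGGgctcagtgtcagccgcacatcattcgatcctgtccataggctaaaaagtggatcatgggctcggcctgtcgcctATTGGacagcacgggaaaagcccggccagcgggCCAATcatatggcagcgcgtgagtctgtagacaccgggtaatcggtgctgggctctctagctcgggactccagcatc
Npas4: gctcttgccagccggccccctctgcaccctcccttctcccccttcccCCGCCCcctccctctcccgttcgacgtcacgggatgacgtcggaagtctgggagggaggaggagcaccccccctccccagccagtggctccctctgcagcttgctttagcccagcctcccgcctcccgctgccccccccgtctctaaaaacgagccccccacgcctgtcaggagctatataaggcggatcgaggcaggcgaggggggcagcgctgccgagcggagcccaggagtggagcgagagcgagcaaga
Egr2: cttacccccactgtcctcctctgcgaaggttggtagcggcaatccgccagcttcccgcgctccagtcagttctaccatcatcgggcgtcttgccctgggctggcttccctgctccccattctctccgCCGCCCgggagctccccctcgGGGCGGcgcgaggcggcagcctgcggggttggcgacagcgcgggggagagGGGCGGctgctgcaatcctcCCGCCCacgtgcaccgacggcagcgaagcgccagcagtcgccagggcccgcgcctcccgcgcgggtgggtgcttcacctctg

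The Mvk window holds 2 GC boxes and 5 CCAAT matches, and the Mvd window holds 1 GC box and 2 CCAAT matches. The Egr2 window holds 4 GC boxes and the Npas4 window 1, and neither holds CCAAT. No window of the 4 holds the full response element or AP-1 letters. Over all 32851 windows of the table, 35.7% hold a GC box, 37.4% CCAAT, 1.79% the response element and 7.81% AP-1. A match describes letters in this window, and binding was not measured. Promoter windows could be matched by symbol for 77.7% of tested genes, under the 80% needed here, so motif shares among called genes are not compared.

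Of 19 tested neuropeptide and secretory granule genes 5 were called lower (26.3%) and 0 higher, against 6.68% and 8.00% of all genes. The other 14 were not called. All 19 lay below the median gene, with a median of -0.91. Cck, the peptide cholecystokinin, measured 68.2 FPKM in HDAC2 knockdown, 197 FPKM in Sp3 knockdown and 140 FPKM in control (-1.97 ± 0.25). Sst, the somatostatin gene of an interneuron class, measured 77.1, 145 and 76.0 FPKM (-1.35 ± 0.25), and Pnoc, the nociceptin precursor, 1.26, 4.62 and 2.57 FPKM (-2.32 ± 0.45). For Sst the HDAC2 knockdown value was close to control, while for Cck and Pnoc control lay between the knockdowns. Grp (-1.46 ± 0.32) and Nts (-1.43 ± 0.43), 2 further peptide genes, were called lower as well.

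Neuron class markers went in both directions. Of 16 tested GABAergic markers 4 were called lower (25%) and 1 higher (6.25%), against 6.68% and 8.00% of all genes. Their median was 0.02, or 0.46 without centring, with 4 lower and 3 higher. The vesicular GABA transporter gene Slc32a1 (6.34 against 13.1 FPKM, -1.48 ± 0.29), the GABA-synthesising enzyme gene Gad2 (7.72 against 15.5 FPKM, -1.44 ± 0.26) and the interneuron marker Calb2 (18.6 against 42.4 FPKM, -1.63 ± 0.26) were lower. Gad1, the other GABA-synthesising enzyme gene, was not called at 74.3 against 54.3 FPKM (0.01 ± 0.34), and the receptor gene Erbb4 was higher (0.93 ± 0.27). Of 19 tested glutamatergic markers 5 were lower (26.3%) and 2 higher (10.5%). Without centring 1 was lower and 4 higher, or 3 lower and 1 higher with a pseudocount of 1 FPKM. The vesicular transporter gene Slc17a6 had 7.80 against 17.2 FPKM (-1.59 ± 0.26), whereas its paralog Slc17a7 was not called at 275 against 219 FPKM (-0.11 ± 0.72). Of 14 tested pan-neuronal markers 13 lay below the median gene, but 3 were called lower (21.4%) and 1 higher (7.14%). Without centring 2 were lower and 1 higher. Elavl4, a neuronal RNA-binding protein, stood at 12.7 against 26.1 FPKM (-1.48 ± 0.12), and among neurofilaments Nefm was lower (-1.23 ± 0.32) while Nefh was higher (1.44 ± 0.29).

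Synaptic and channel genes were mostly below the median gene, and for several lists the side of 0 depends on the centring. Of 58 tested synaptic adhesion molecules 18 were called lower (31%) and 1 higher (1.72%), against 6.68% and 8.00% of all genes. Their median was -0.50, and without centring 7 were lower and 2 higher with a median of -0.05. The cadherin gene Cdh12 stood at 2.10 against 4.78 FPKM (-1.62 ± 0.33), the calsyntenin gene Clstn2 at 25.1 against 47.4 FPKM (-1.36 ± 0.30) and the netrin-like gene Ntng1 at 4.54 against 7.05 FPKM (-1.07 ± 0.20). Nlgn1, a neuroligin of excitatory synapses, differed less but precisely, at 60.3 against 70.2 FPKM (-0.66 ± 0.10). Of 51 tested presynaptic genes 7 were lower (13.7%) and 1 higher (1.96%). Their median of -0.43 became 0.01 without centring, with 3 lower and 3 higher. Of 16 tested ionotropic glutamate receptor subunits 5 were lower (31.25%) and 1 higher (6.25%). Their median of -0.35 became 0.09 without centring, with 0 lower and 2 higher. With a pseudocount of 1 FPKM 3 were lower and 0 higher. Grin1, the obligate NMDA receptor subunit, had almost equal levels of 131 and 133 FPKM, and so its call as lower (-0.46 ± 0.15) rests on the centring. Grin2c, an NMDA receptor subunit also found in astrocytes, was higher at 2.53 against 0.445 FPKM (2.07 ± 0.47). Of 26 tested postsynaptic scaffold genes 3 were lower (11.5%) and 1 higher (3.85%), with a median of -0.02. Shank3 was among the lower ones at 17.6 against 29.6 FPKM (-1.19 ± 0.33), and Homer3 was the higher one (1.17 ± 0.39). Without centring the counts for this list were 0 lower and 8 higher, with a median of 0.42.

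Among 23 sodium and calcium channel subunits with a test, 5 were lower (21.7%) and 1 higher (4.35%), against 6.68% and 8.00% of all genes. Their median was -0.62, or -0.18 without centring (1 lower and 3 higher). With a pseudocount of 1 FPKM 2 were lower and 1 higher. Among calcium channel beta subunits Cacnb4 was lower at 10.1 against 15.7 FPKM (-1.07 ± 0.12), whereas Cacnb3 was higher at 58.4 against 22.5 FPKM (0.93 ± 0.24). Of 67 tested potassium and HCN channels 13 were lower (19.4%) and 3 higher (4.48%). The median of -0.24 became 0.20 without centring (4 lower and 15 higher). Kcnt2 (9.59 against 17.3 FPKM, -1.29 ± 0.25) was among the lower ones, and 2 of the 3 higher ones, Kcnj10 and Kcnj16 (1.30 ± 0.24), encode channels that glia use. Clustered protocadherins, surface proteins that give neurons their individual identity, were called lower in 11 of 58 genes (19%) and higher in 0, with a median of -0.52, or -0.08 without centring (3 lower and 1 higher). Of the 11, 10 belong to the beta cluster, and Pcdhb6 stood at 4.13 against 8.21 FPKM (-1.43 ± 0.30). Of 9 delta protocadherins 3 were lower (33.3%) and 0 higher, or 2 lower and 1 higher without centring. The lower ones were Pcdh8 (-0.89 ± 0.07), Pcdh19 (-1.04 ± 0.08) and Pcdh18 (-1.22 ± 0.33). The astrocyte and oligodendrocyte lists had medians above 0, while the centred medians of these synaptic and channel lists were below 0, at -0.02 for postsynaptic scaffold genes. Without centring the presynaptic, ionotropic receptor, postsynaptic and potassium channel medians were 0.01, 0.09, 0.42 and 0.20, also above 0. The part of glial markers in these differences was not tested.

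**Figure D3:**
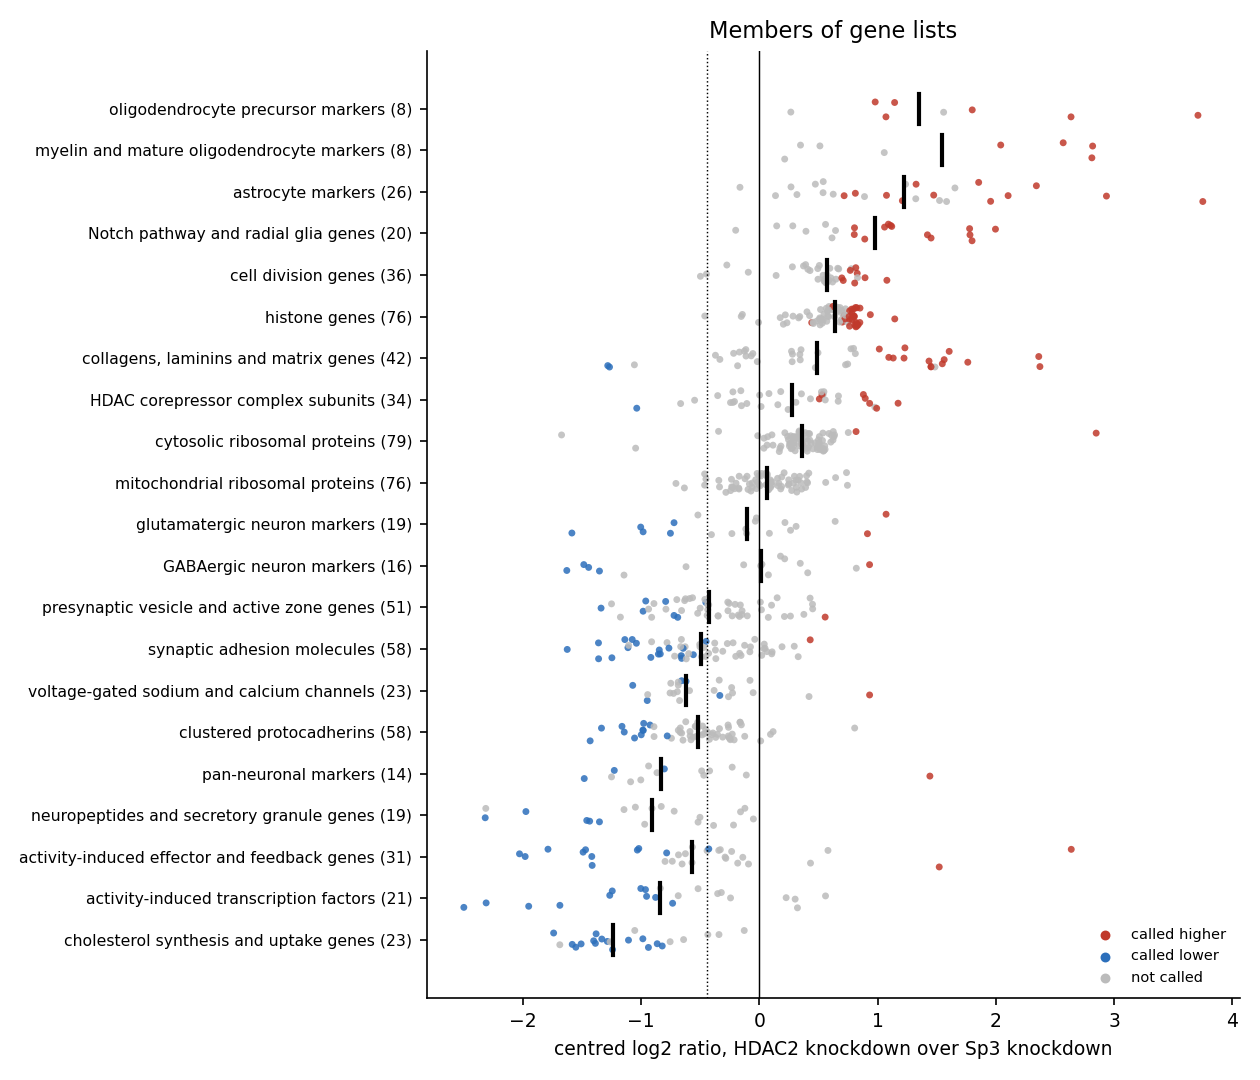
Centred log2 ratio of HDAC2 over Sp3 knockdown for each tested member of 21 gene lists, with 1 dot per gene, black bars at the list medians, a solid line at the median gene and a dotted line at equal FPKM. Oligodendrocyte, astrocyte and Notch lists have medians between 0.98 and 1.55, cholesterol genes stand at -1.24 with all 23 members below 0, and clustered protocadherins and synaptic adhesion genes have medians close to the dotted line.

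Adora1, the adenosine A1 receptor that damps transmitter release, had the smallest p-value of all genes tested. It measured 15.1 FPKM in HDAC2 knockdown, 36.2 FPKM in Sp3 knockdown and 24.6 FPKM in control (-1.70 ± 0.11), and its adjusted p from the authors' errors was 1.03e-48. Klc2, a light chain of the motor kinesin-1, measured 15.4, 42.1 and 28.2 FPKM (-1.90 ± 0.13). Hs6st2, which sulfates heparan chains, measured 18.2, 40.8 and 24.1 FPKM (-1.61 ± 0.13). For these 3 genes control lay between the knockdowns. The actin-binding profilin gene Pfn2 stood at 31.3 against 122 FPKM with control at 114 FPKM (-2.41 ± 0.31), so that Sp3 knockdown lay close to control. Mkrn1, a ubiquitin ligase, had its high value in Sp3 knockdown instead, at 46.3 FPKM against 13.7 FPKM in HDAC2 knockdown and 18.6 FPKM in control (-2.20 ± 0.26). Other large differences downward were those of the secreted factor genes Apln (-2.55 ± 0.36) and Bmp3 (-2.44 ± 0.31), of Ctxn2 (-2.56 ± 0.55) and of the glutaredoxin gene Glrx (-2.25 ± 0.33).

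Housekeeping lists gave few calls when centred and more upward without centring. Of 76 tested mitochondrial ribosomal proteins 0 were called in either direction by the normal test, 7 had an unadjusted p under 0.05, 17 were higher without centring, and their median was 0.07. Of 82 oxidative phosphorylation subunits 1 was higher and 2 lower, with a median of 0.02, and without centring 14 were higher and 0 lower. Cytosolic ribosomal proteins had a median of 0.36, and 75 of 79 lay above 0, but 3 were called higher and 0 lower, and without centring 32 were higher and 0 lower. One of these, Rps27, stood at 51.6 against 5.28 FPKM (2.85 ± 0.74) and has processed copies elsewhere in the genome, so its value is uncertain. Proteasome subunits had a median of -0.36 with 1 of 46 called lower (2.17%), against 6.68% of all genes. Aminoacyl-tRNA synthetases had a median of -0.34 with 3 of 20 called lower (15%). Without centring both medians are above 0, with 5 and 4 called higher and 0 lower. Of 323 numbered zinc finger genes 11 were higher and 6 lower, shares under the background in both directions, and without centring 79 were higher and 1 lower, or 6 and 1 with a pseudocount of 1 FPKM.

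Of 56 tested axon guidance genes 9 were called lower (16.1%), against 6.68% of all genes. Another 5 were called higher (8.93%), a share near the 8.00% of all genes. Without centring 2 were lower and 13 higher, and with a pseudocount of 1 FPKM 6 were lower and 1 higher. The semaphorin receptor gene Plxnd1 was the largest difference upward at 64.6 against 9.49 FPKM (2.33 ± 0.45), and its level in control was 14.7 FPKM. The ephrin receptor gene Epha6 (19.4 against 34.7 FPKM, -1.28 ± 0.27) and the semaphorin receptor gene Nrp2 (14.3 against 21.6 FPKM, -1.03 ± 0.18) were lower. Of 35 stress response genes 3 were called higher and 3 lower, which is 8.57% each way beside 8.00% and 6.68% of all genes, or 5 higher and 2 lower without centring. Among these Dnajb9, a chaperone of the endoplasmic reticulum, was higher (1.37 ± 0.27), and Chac1, a glutathione-degrading enzyme induced by amino acid stress, was lower (-1.48 ± 0.33).

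Genes of long loci differed downward more often than short ones, a feature the comparison did not use. Of 570 tested genes whose deposited locus spans over 300 kb, 17.5% were called lower and 4.56% higher in HDAC2 knockdown, with a median of -0.33, or 0.11 without centring. Of the 1585 genes under 5 kb, 5.17% were lower and 7.45% higher. Many neuronal genes are long. A deposited locus is not always the span of a single gene, however. The clustered protocadherins Pcdhb2, Pcdhb4, Pcdhb5, Pcdhb6 and Pcdhb18, each called lower, share the locus chr18:37089938-38001526. Such genes count as long here and fall on a synaptic list, and the shares were not recomputed without them. Among loci over 300 kb, 24.7% of the 150 on a synaptic, channel or adhesion list were lower, and so were 15% of the 420 that are on none of these lists. The share called also changed with level, since 3980 genes between 3 and 10 FPKM (geometric mean of both knockdowns) gave 10.3% higher and 5.85% lower, and 2097 genes between 30 and 100 FPKM gave 5.10% higher and 9.44% lower. On the X chromosome 12.5% of 464 tested genes were lower, against 6.68% of all genes, and with loci of up to 100 kb the shares were 11.2% on the X and 5.56% on autosomes. These shares are descriptions without a test.

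**Figure D4:**
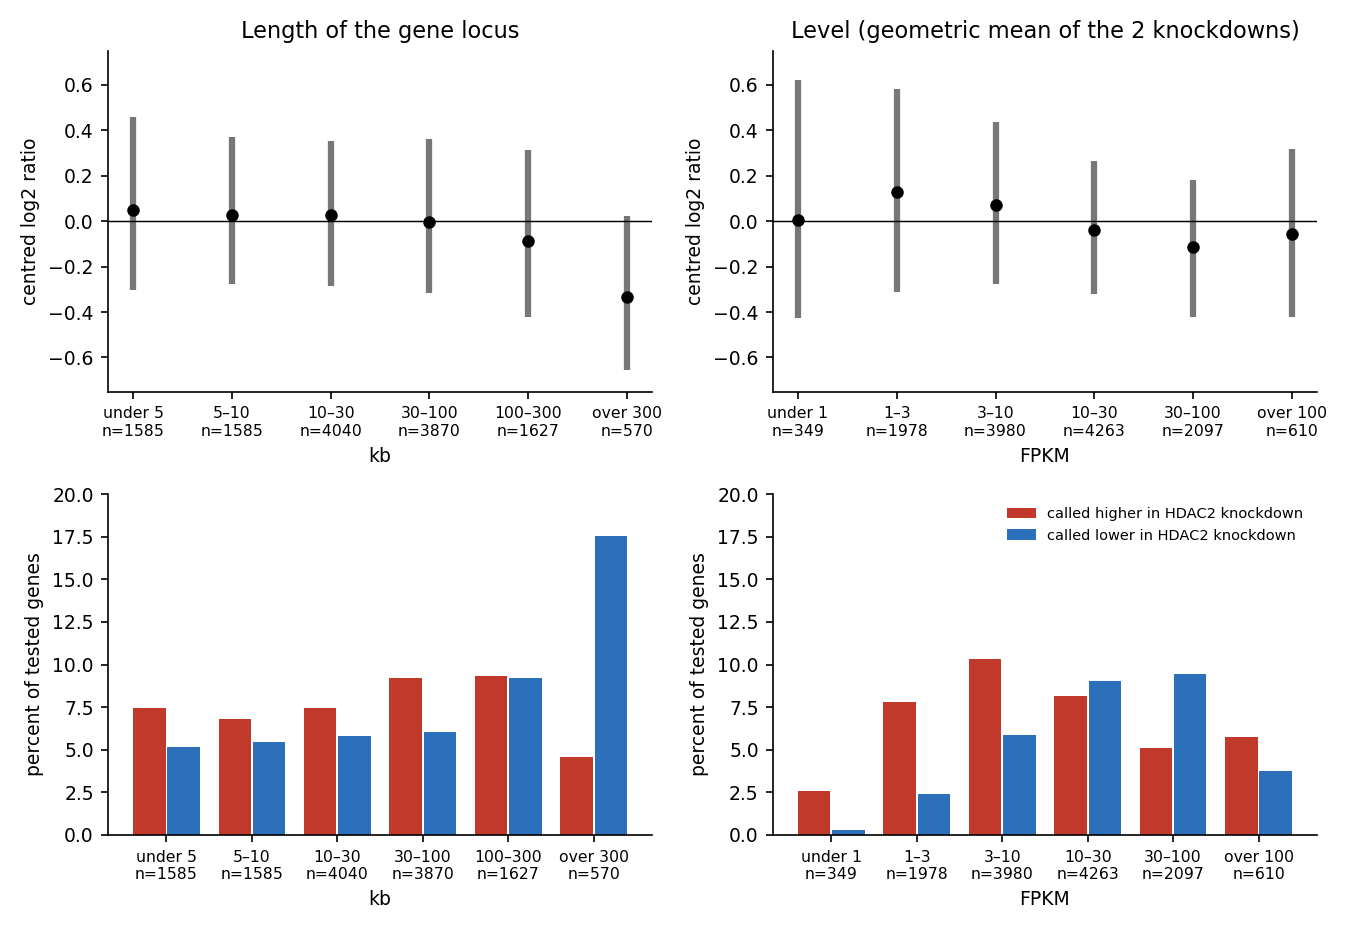
Top, median (dots) and quartiles (bars) of the centred log2 ratio of HDAC2 over Sp3 knockdown in bins of locus length (left, kb) and level (right, FPKM as the geometric mean of the knockdowns). Bottom, percent of tested genes called higher (red) or lower (blue) in the same bins; the share called lower is 17.5% in loci over 300 kb and 5.17% under 5 kb.

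A small set of genes could not be given a ratio. Of the 13357 members 28 were listed at 0 in HDAC2 knockdown alone, 10 in Sp3 knockdown alone and 22 in both, and 20 had no usable error. Of the 38 at 0 in 1 knockdown, 26 were microRNA entries and 6 small nucleolar RNA entries, and none exceeded 12.8 FPKM in the other knockdown. Outside the comparison, 212 genes passed the authors' test in the HDAC2 table alone, 262 in the Sp3 table alone, and 9404 in neither.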

How the data were processed

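The authors deposited a table for each of the 2 knockdowns against control. Per the file headers, the deposited columns are locus, status, FPKM per group, log2 fold change, test statistic, p-value, q-value and call, for 23235 genes. The tools named in the submitters' processing notes are TopHat, Bowtie and Cuffdiff, and the build is mm9; no versions are given. Which annotation and strand setting the authors used, and how they treated multiply mapped reads, is not given in the sources used here. Deposited FPKM is 1 value per group of 2 libraries. Control values were the same in both tables for all 23235 genes. The deposited test statistic, a score without fixed range, has the opposite sign to the deposited log2 fold change. Read as a normal deviate it gave the authors' p-value to within 2.79e-06. The authors' q-values were not used.

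Genes with status OK in both tables were joined, and the log2 ratio of the knockdown FPKM values was centred by 0.44. The standard error of each comparison was computed as log2 fold change over test statistic, errors over 5 were treated as missing (9 genes), and both were added in quadrature. The normal two-sided p was adjusted by Benjamini-Hochberg over 13277 genes. The calculation was tested on simulated data. Python 3.11.15, pandas 2.3.3, NumPy 2.4.6, SciPy 1.17.1 and matplotlib 3.10.9 were used. The members, the 45 gene lists and the tests were chosen with earlier results of these data known. The naming rule takes both targets and 4 relatives, the 12 genes per direction with the largest ratio (5 FPKM or more in the higher knockdown), the 12 with the smallest p, and, from lists with at least 3 calls, the 5 of smallest p. The text gives only some of these, some named genes are not reported here, and other list members it names were chosen after their values were seen. Alternatives varied the centring, error, reference distribution, thresholds, FPKM filter and pseudocount.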

Additional observations from a re-analysis of the deposited data

How the results depend on the processing

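The counts given are genes higher, lower and in either direction, beside 1062, 887 and 1949 as reported. Without centring they were 3528, 287 and 3815, of which 1351 were shared. Of the named genes with a call as reported, Anks1b (0.12), Atp5g1 (0.23) and Scn8a (0.11) changed sign. So did any gene whose centred value lay less than 0.44 below 0, such as the uncalled Hdac3 (0.39) and Sp4 (0.22). With every standard error divided by the same factor the counts were 2101, 1907 and 4008. That factor would remove the control share of the error only if all groups had equal error. The median errors against control were 0.26 for HDAC2 and 0.14 for Sp3 knockdown, so for many genes it can remove more than that share. At an adjusted p under 0.01 the counts were 664, 556 and 1220. With a minimum difference of 1 on the log2 scale they were 639, 386 and 1025. With a t reference of 4 degrees of freedom they were 0, 0 and 0, with 1816 genes at an unadjusted p under 0.05 and 3349 under the normal reference. Upper-quartile centring, centring on genes of 10 FPKM or more, FPKM filters of 1 and 5 and pseudocounts of 0.1 and 1 gave totals between 1375 and 2022. Of 216 named genes, 33 lost their call without centring, 194 under the t reference, 59 under the minimum difference, 26 at 0.01 and 23 with a pseudocount of 1. No paired analysis was possible because the files hold 1 value per group and none per library, and for the same reason no replicate could be left out. Depth per library is unknown.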
